A study of Mus musculus with 12 samples.

Results

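The genes described here encode the proteins of the cytosolic ribosome, followed in Eµ-myc lymphoma cells, a B cell line of the mouse, exposed to interferon-γ (IFN-γ). They were taken by symbol, as Rpl or Rps plus a number together with Rplp0, Rplp1, Rplp2 and Rpsa, with pseudogenes and the Rps6k kinases left out, and had to average at least 10 CPM (a gene's counts scaled to a common library size) over the libraries. Of 53379 rows of the count table, 83 had such a symbol and 76 passed the minimum: 31 of the small subunit, 42 of the large subunit and the 3 stalk proteins.

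The study measured polyadenylated RNA in 12 libraries of this line, on a C57BL/6 background, in 4 groups of 3: cells left without IFN-γ (unstimulated), and cells given recombinant mouse IFN-γ at 5 ng/mL for 1 h, 6 h or 24 h. Exposure was ended with a neutralising antibody against IFN-γ (clone XMG1.2, used at 50 µg/mL). Per the labels, harvest was 24 h post stimulation for the exposed cells. All groups share the Myc transgene, which an immunoglobulin heavy chain enhancer drives, and all come from 1 line. The labels do not say whether the unstimulated or the 24 h cells received antibody, nor whether the 3 samples of a group were separate cultures, so the p-values reflect no more than the variation among these samples and may be technical.

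Each ribosome holds about one copy of each of these proteins, apart from the stalk proteins Rplp1 and Rplp2, which are present in more than one copy. Transcription of the genes is raised by Myc, and their messenger RNAs begin with a run of pyrimidines (the 5′ terminal oligopyrimidine, or TOP, motif) through which mTOR signalling sets how well they are translated. RNA levels, as measured here, do not show that translational step.

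RefSeq start regions (GRCm38.p6) were found for 56 of the 76 genes. The following 60-base windows, from 40 bases before the annotated start to 20 bases after it, are shown because they belong to genes whose values the results turn on, and capitals mark the longest run of C and T within 20 bases of the start. Rpl12, Rpl7a and Rpl19 were lower after 24 h, Rps27l and Rpl27 were higher after 24 h than after 6 h, and Rpl38 is one of the genes that varied most between replicates.
Rpl12: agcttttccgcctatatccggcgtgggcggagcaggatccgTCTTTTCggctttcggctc
Rpl7a: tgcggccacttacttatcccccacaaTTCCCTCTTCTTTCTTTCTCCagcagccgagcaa
Rpl19: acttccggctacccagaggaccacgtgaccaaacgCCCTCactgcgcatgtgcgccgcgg
Rps27l: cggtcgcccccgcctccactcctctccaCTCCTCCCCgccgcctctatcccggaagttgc
Rpl27: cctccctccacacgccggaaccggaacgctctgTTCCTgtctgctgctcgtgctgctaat
Rpl38: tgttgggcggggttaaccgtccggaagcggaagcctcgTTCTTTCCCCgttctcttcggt
All 6 lie on the plus strand, at chr2:32961672-32961731, chr2:26910767-26910826, chr11:98026670-98026729, chr9:66946046-66946105, chr11:101442205-101442264 and chr11:114668540-114668599 in the order shown. The run in capitals was 21 bases long in Rpl7a, 10 in Rpl38, 9 in Rps27l, 7 in Rpl12, and 5 in both Rpl19 and Rpl27. A run of at least 8 pyrimidines on the coding strand within 20 bases of the start was present in 27 of the 56 genes (48.2%), against 15.9% of the 27025 start regions in the table. The letters CCGGAAG, a core recognised by ETS family factors, stood on either strand of the 300-base region in 23 of 56 (41.1%), against 9.12% of all regions. TATAAA was found in 5 of 56 (8.93%), against 14.2% of all regions. These matches describe the sequence and are not shown to be sites.

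Library totals ran from 49440358 to 67096610 counts. The B cell genes Cd79a, Cd79b, Pax5 and Ebf1 had medians of 231 to 602 CPM over the libraries, while of 13 T and NK cell, myeloid and fibroblast markers the highest median was 1.73 CPM (Itgam), and Nkg7, Col3a1 and Dcn were at 0 in every library. Replicate 3 of the 6 h group and replicate 3 of the 24 h group stood apart from their group for the ribosomal protein genes, as described next.

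Together the 76 genes held between 5.06% and 5.79% of all counts in a library. The share averaged 5.44% ± 0.256 in unstimulated cells, 5.29% ± 0.103 after 1 h, 5.28% ± 0.366 after 6 h and 5.46% ± 0.288 after 24 h (SD, n = 3 each), so the ranges of the 4 groups overlapped. In bulk RNA a change in cell number and a change in RNA per cell cannot be told apart, and these shares are of the RNA sequenced. The order of single libraries followed no group. The highest shares were in replicate 3 of the 24 h group (5.79%), replicate 3 of the 6 h group (5.70%) and replicate 3 of the unstimulated group (5.66%), and the lowest in replicates 2 (5.06%) and 1 (5.08%) of the 6 h group.

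The genes moved together between replicates. After group means were removed, 1 principal component took 78.8% of the variance of the 76 genes and 75 of them loaded on it with the same sign. The median gene stood 0.14 log2 units above its own 12-library mean in replicate 3 of the 24 h group and 0.10 above it in replicate 3 of the 6 h group, with 63 and 68 of the 76 genes above their mean. In replicates 1 and 2 of the 6 h group the median gene stood at -0.11 in both, with 7 and 2 genes above their mean. The unstimulated group was split too. Its median gene stood at 0.09 in replicate 3 and -0.08 in replicate 2, with 72 and 9 genes above their mean.

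**Figure D1:**
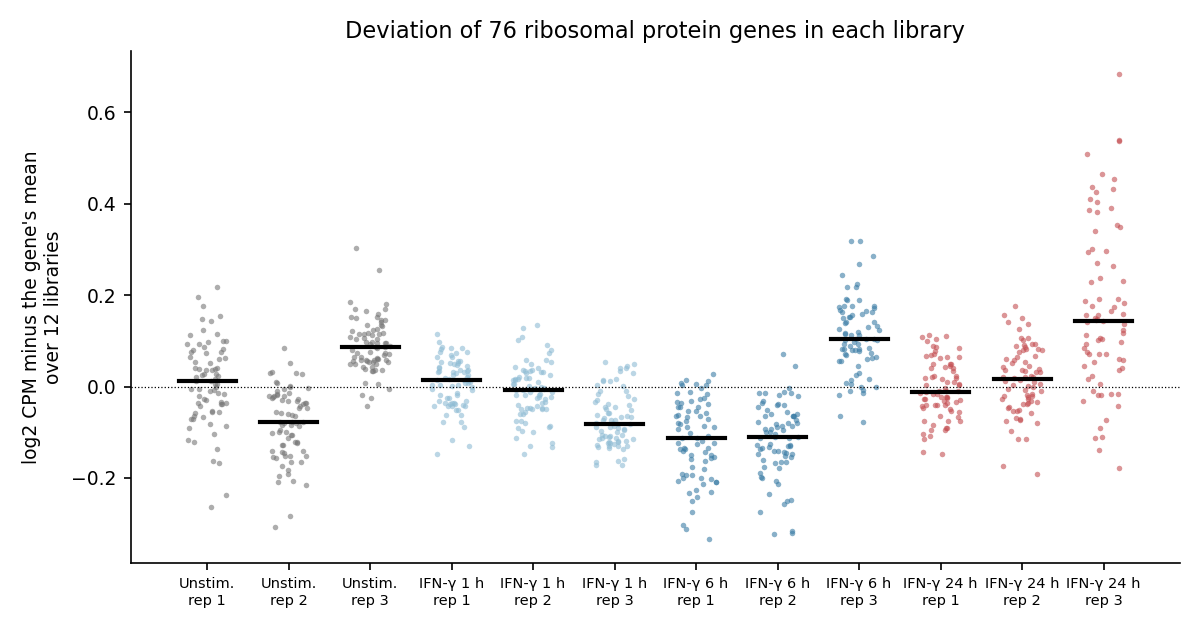
Each point is 1 of the 76 ribosomal protein genes, plotted as its log2 CPM minus its mean over the 12 libraries, and the black line is the median gene of the library. The medians run from -0.11 in replicates 1 and 2 of the 6 h group to 0.14 in replicate 3 of the 24 h group, and replicates of the 6 h group lie on both sides of 0.

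A property of the libraries that does not use these genes moved with their share. Among genes with 1 to 20 counts, the percentage with an even count was 73.9% in replicate 3 of the 6 h group, 73.7% in replicate 3 of the 24 h group and 72.2% in replicate 3 of the unstimulated group, the same 3 libraries that had the highest ribosomal protein shares. Replicate 3 of the 1 h group stood low in both, with 70.5% even counts and a share of 5.18%. The percentage of even counts was lowest, at 69.9% and 70.1%, in replicates 1 and 2 of the 6 h group. Its part in the results was not tested beyond the fit with this percentage as a covariate, whose counts are given with each comparison below.

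**Figure D2:**
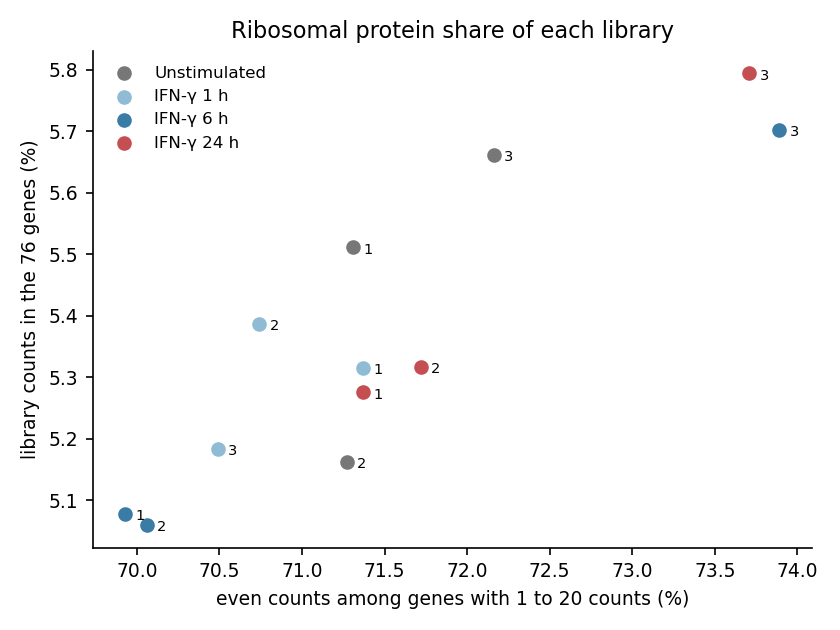
Percentage of each library's counts in the 76 genes against the percentage of even values among genes with 1 to 20 counts, 1 point per library, coloured by group and numbered by replicate. The replicates numbered 3 of the 24 h, 6 h and unstimulated groups lie at upper right (5.66% to 5.79%), and replicates 1 and 2 of the 6 h group at lower left.

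Levels differed widely between the genes. Per kilobase of coding length, the 12-library mean ran from 51.8 to 4278 CPM, with a median of 1233. Rpl41, whose coding sequence of 75 bases is the shortest of the set, was highest on this scale, followed by Rps24 (3865) and the stalk base protein Rplp0 (2817). Per kilobase of all annotated exon bases, the highest were Rplp0 (1615), Rpl4 of the large subunit (1412) and Rps15 of the small subunit (1075), and the lowest were Rpl13a (14.9), Rps19 (51.4) and Rps28 (55.7).

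Rpl13a, at chr7:45125558-45128761 on the minus strand (GRCm38), stood lowest on both scales. It is a large subunit protein that, in human myeloid cells treated with IFN-γ, is released from the ribosome and joins a complex that blocks translation of inflammatory messenger RNAs. Its level was 32.1, 30.7 and 30.6 CPM in unstimulated cells, 31.5, 30.8 and 32.5 after 1 h, 30.6, 29.6 and 34.7 after 6 h, and 33.0, 32.0 and 30.6 after 24 h. All groups overlapped, and the difference between 24 h and unstimulated cells was 0.03 ± 0.06 (log2, SE; edgeR adjusted p = 0.777). Of its exon bases, 35.4% are shared on the same strand with Gm45713, Mir5121 and Snord33, the largest such share among the 76 genes, so its counted level is uncertain.

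Reads of many of these genes can also match other annotated genes, whether elsewhere in the genome or overlapping at the same place. Of the 125-base stretches of their transcripts, equal to 1 read, a median of 12.7% occurred unchanged in another annotated gene. The share was 0 in 6 genes, among them Rps27l and Rpl22, and reached 69.9% in Rpl23a. Of the exon bases of Rpl23a, 59.7% are shared on the opposite strand with Tlcd1, so its share need not come from copies elsewhere. Levels of genes with a high share are uncertain, since no source used here gives the strand setting or the handling of reads with several matches.

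The rows nearest the 10 CPM minimum were far from it. Just inside stood Rpl13a at 31.5 and Rps29 at 78.1 CPM, and just outside stood Rpl6l at 4.44 and Rpl3l, a form of skeletal muscle and heart, at 2.46 CPM. The row for Rpl24 averaged 1.20 CPM and that for Rpl32l 0.920 CPM. Rpl24 is a core protein of the large subunit, so its counted level is uncertain and does not show that the gene was silent; how its reads were assigned was not tested. Rpl10l, Rpl39l and Rps4l had 0 counts in every library. Rpl10l and Rpl39l are known from testis.

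After 24 h of IFN-γ, 6 of the 76 genes were lower than in unstimulated cells and none was higher by edgeR's quasi-likelihood test (adjusted p under 0.05, Benjamini-Hochberg over 14299 genes). Across all genes tested, 18.7% were called, 8.35% as lower and 10.3% as higher. The share of ribosomal protein genes called lower, 7.89%, was near that background. DESeq2 called 7 genes, the 6 lower ones and 1 higher, and 11 had an unadjusted edgeR p under 0.05. The share of all genes at that unadjusted threshold is not given here or below, so such counts stand without a background. Among the 6 were Rpl12, Rps14, Rpl7a and Rpl19, with log2 fold changes between -0.25 and -0.16. Of the 31 small subunit genes 2 fell, of the 42 large subunit genes 4 fell, and of the 3 stalk genes none changed. The median log2 fold change of the 76 was 0.05, against -0.003 over all genes tested. Of the 76 values 50 were above 0, and 67 lay within 0.25 of 0. That median was between 0.00319 (without replicate 3 of the 24 h group) and 0.09 (without replicate 3 of the unstimulated group) when 1 library was left out, 0.00564 without replicate 2 of the unstimulated group, and 0.00996 with the even-count covariate.

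**Figure D3:**
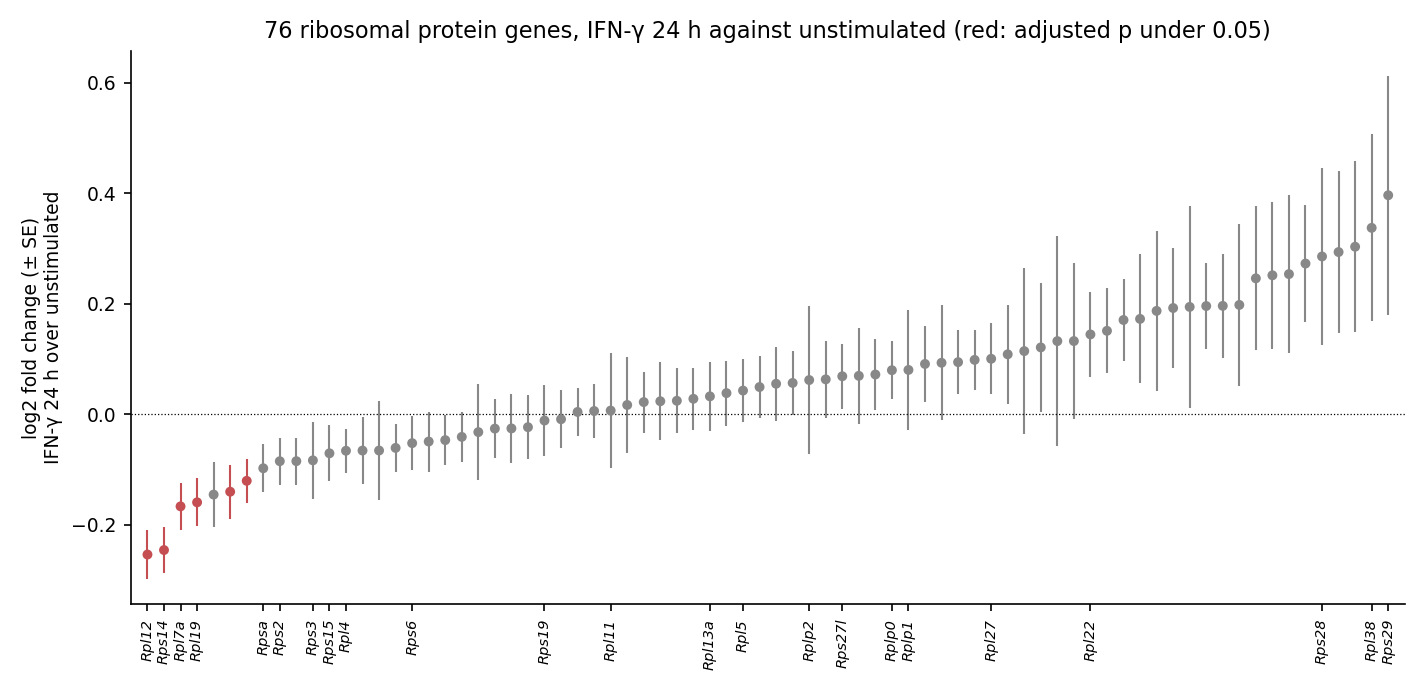
Log2 fold change of each of the 76 genes after 24 h of IFN-γ over unstimulated cells, sorted, with bars of 1 SE and the names of some genes below. The 6 genes in red passed an adjusted p of 0.05 and all lie below 0, while the genes at the right end, up to 0.40 for Rps29, carry the longest bars and did not pass.

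Rpl12 encodes a large subunit protein at the base of the stalk, where translation factors are recruited, and lies at chr2:32961559-32965345. Its level was 1299, 1140 and 1209 CPM in unstimulated cells, 1245, 1233 and 1162 after 1 h, 1127, 1185 and 1169 after 6 h, and 1038, 1007 and 1015 after 24 h. The 24 h libraries lay below every other library. Rpl12 fell by 0.25 on the log2 scale after 24 h against unstimulated cells (SE 0.04; edgeR adjusted p = 0.000105), and it passed in each of the 6 fits that left out 1 library of either group (highest adjusted p 0.00382) and in each of the 13 other alternatives.

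Rps14, a small subunit protein whose human gene is lost in the 5q- syndrome, lies at chr18:60747098-60778546. Its level was 837, 785 and 838 CPM in unstimulated cells, 768, 807 and 752 after 1 h, 762, 714 and 774 after 6 h, and 686, 699.8 and 688 after 24 h. The 24 h libraries were again the lowest of all 12. Rps14 fell by 0.25 after 24 h against unstimulated cells (log2, SE 0.04; edgeR adjusted p = 7.95e-05) and passed in all 6 fits without 1 library and all 13 other alternatives.

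Rpl7a, a large subunit protein at chr2:26910764-26913318, had 1053, 1093 and 1050 CPM after 24 h, against 1211, 1132 and 1244 CPM in unstimulated cells. The groups did not overlap, and Rpl7a differed by -0.17 ± 0.04 (log2, SE; adjusted p = 0.00527 in edgeR). Rpl19, a large subunit protein at chr11:98026710-98030492, had 639, 629 and 672 CPM after 24 h, against 755, 674 and 739 CPM in unstimulated cells. Its highest 24 h library lay just under the lowest unstimulated library, and the difference was -0.16 ± 0.04 (log2, SE; adjusted p = 0.0101 in edgeR).

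Among the fits without 1 library, the call was lost in 4 of 6 for Rpl19 and in 1 of 6 for Rpl7a.

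**Figure D4:**
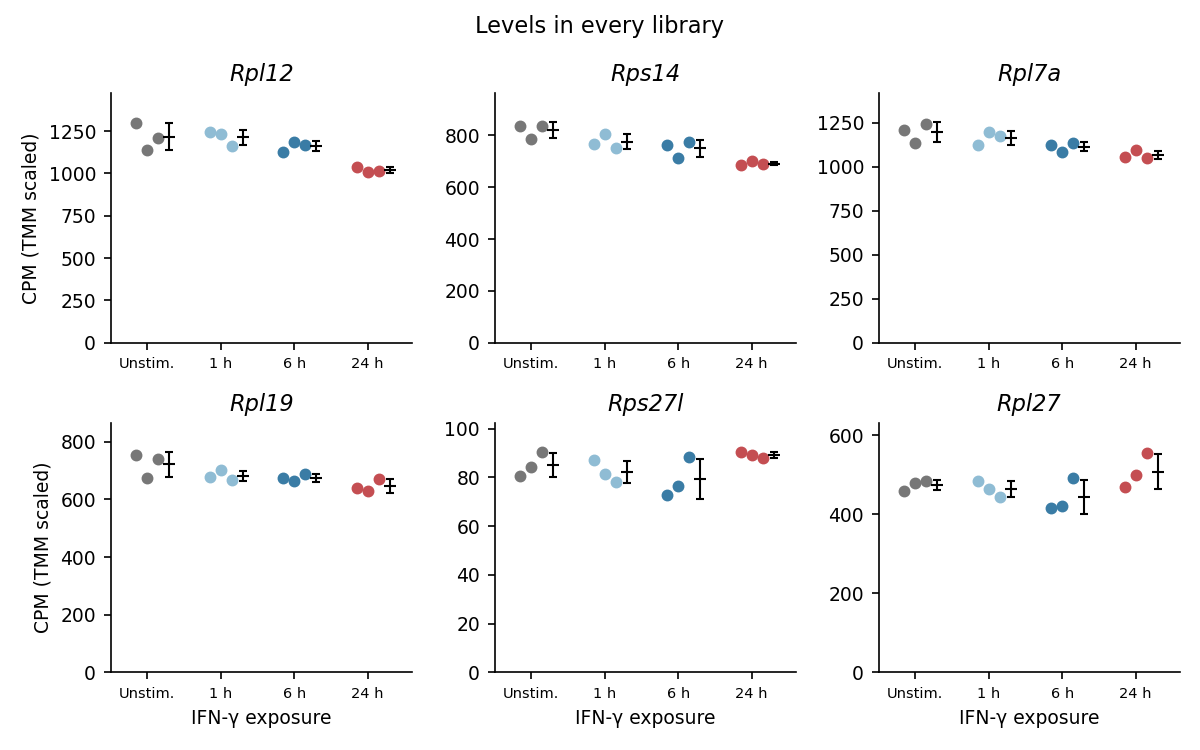
Levels in CPM of 6 genes in every library, by IFN-γ exposure, with the mean and SD of each group in black and axes that start at 0. Rpl12 and Rps14 have their 3 lowest libraries in the 24 h group (1007 to 1038 and 686 to 699.8 CPM), while Rps27l spreads most in the 6 h group (73.0 to 88.4 CPM).

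The members in this paragraph, picked for known roles outside protein synthesis, did not pass the test after 24 h. Members outside the fixed list were not sorted by such roles. Rpl5 and Rpl11, which bind Mdm2 and so stabilise p53 when ribosome assembly is disturbed, averaged 950 ± 33.4 and 826 ± 54.7 CPM after 24 h, against 922 ± 75.9 and 823 ± 102 CPM in unstimulated cells (SD, n = 3 each). Rps6, the substrate of the S6 kinases, averaged 1157 ± 60.1 CPM after 24 h and 1200 ± 34.2 CPM in unstimulated cells. Rps3, also described as a partner of NF-κB and in DNA repair, averaged 958 ± 64.4 CPM after 24 h and 1015 ± 109 CPM in unstimulated cells. For these 4 genes the 2 groups overlapped.

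Rpsa, a small subunit protein also known as a laminin receptor, had 2127, 2183 and 2196 CPM after 24 h, against 2338, 2216 and 2410 CPM in unstimulated cells. These groups did not overlap, but the log2 fold change of -0.10 ± 0.04 had an edgeR adjusted p of 0.120. Rpl22, a large subunit protein known for its part in T cell development, averaged 250 ± 9.15 CPM after 24 h and 226 ± 18.5 CPM in unstimulated cells (0.14 ± 0.08 log2, adjusted p = 0.229). The stalk genes Rplp0, Rplp1 and Rplp2 had log2 fold changes of 0.08 ± 0.05, 0.08 ± 0.11 and 0.06 ± 0.13 (SE).

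Library choice moved the 24 h count. It was 3 without replicate 1 and 3 without replicate 3 of the unstimulated group, in fits that called 12.4% and 14.7% of all genes. Without replicate 2 of the unstimulated group it was 9 (11.8%), all lower, where 17.2% of all genes were called and 7.23% were called lower. With replicate 3 of the 6 h and 24 h groups both left out, a pair picked after the values of these genes were seen, it was 7 (1 higher, 6 lower; 5 of the 6 genes shared). There 18.8% of all genes were called. With the percentage of even low counts as a covariate the 24 h count was 18, or 23.7% (11 higher, 7 lower; all 6 genes shared), where 20.9% of all genes were called.

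After 6 h, no ribosomal protein gene was called against unstimulated cells by edgeR or DESeq2, at a background of 1.59% of all genes (1.17% higher, 0.427% lower), and 4 had an unadjusted p under 0.05. The median log2 fold change was -0.05, against 0 over all genes, and 62 of the 76 values were below 0. That median was -0.12 without replicate 3 of the 6 h group, -0.09 without replicate 2 of the unstimulated group, -0.01 without replicate 3 of the unstimulated group, -0.00987 without replicate 2 of the 6 h group and -0.00258 without replicate 1 of the 6 h group. The lowest was Rps14, at 762, 714 and 774 CPM after 6 h against 837, 785 and 838 CPM in unstimulated cells. These groups did not overlap, but the difference of -0.13 ± 0.04 (log2, SE) had an edgeR adjusted p of 0.134. The count changed with the libraries used. Without replicate 3 of the 6 h group 5 genes (6.58%) were called lower, where 1.10% of all genes were. Without that library and replicate 3 of the 24 h group 16 (21.1%) were called lower, where 1.59% of all genes were. This pair was picked after the values of these genes were seen, so the 16 is a description and no independent result. Without replicate 2 of the unstimulated group 1 gene (1.32%) was called lower, where 0.615% of all genes were. With the even-count covariate 0 were called by edgeR, where 2.65% of all genes were called.

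After 1 h, no gene was called by edgeR or DESeq2, at a background of 0.42% (0.273% higher, 0.147% lower), and 0 had an unadjusted p under 0.05. The median log2 fold change was -0.03, against 0 over all genes, with 62 of the 76 values below 0 and single values between -0.13 and 0.16. That median was between -0.08 (without replicate 2 of the unstimulated group) and -0.00228 (without replicate 3 of the unstimulated group) when 1 library was left out; it was -0.06 without replicate 1 and -0.01 without replicate 3 of the 1 h group. With the even-count covariate it turned to 0.00658. Rpl12 differed from unstimulated cells by -0.00 ± 0.04 and Rps14 by -0.08 ± 0.04 (log2, SE). Leaving out any 1 library of these 2 groups gave no call, and neither did the even-count covariate.

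Comparisons between exposures share the 24 h libraries with the comparison above. Between 24 h and 6 h, 2 genes were higher and 1 was lower, at a background of 16.5% of all genes called (8.92% higher, 7.63% lower). Rpl12 was lower after 24 h, by -0.19 ± 0.04 (log2, SE; edgeR adjusted p = 0.00353). Rpl27 of the large subunit had 469, 501 and 556 CPM after 24 h against 416, 422 and 493 CPM after 6 h, and rose by 0.20 ± 0.06 (adjusted p = 0.0432). Rps27l, a relative of Rps27 that p53 induces, had 90.3, 89.3 and 88.0 CPM after 24 h against 73.0, 76.6 and 88.4 CPM after 6 h, and rose by 0.17 ± 0.06 (adjusted p = 0.0470). Both rises overlapped between the groups through replicate 3 of the 6 h group. Among the 6 fits without 1 library, the call was lost in 5 for Rps27l (highest adjusted p 0.257) and in 4 for Rpl27 (highest adjusted p 0.181), and the even-count covariate ended the call for Rps27l.

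The 24 h to 6 h count depended on single libraries more than any other here. It was 26, or 34.2% (25 higher, 1 lower), without replicate 3 of the 6 h group, where 19.2% of all genes were called, and 1 without replicate 1 of the 6 h group, without replicate 2 of the 24 h group or without replicate 3 of the 24 h group, where 11.5% to 12.4% of all genes were called. Rpl12 was called lower in each of these 4 fits. With replicate 3 of both groups left out it was 28, or 36.8% (27 higher, 1 lower), where 15.8% of all genes were called. This pair was picked after the values of these genes were seen, so the 28 is no independent result. With the even-count covariate the count was 14, or 18.4% (12 higher, 2 lower), where 16.6% of all genes were called.

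Between 24 h and 1 h, 4 genes were lower and none was higher, at a background of 18.9% (8.78% lower, 10.2% higher). Rpl12 differed by -0.25 ± 0.04, Rps14 by -0.17 ± 0.04, Rpl7a by -0.13 ± 0.04 and Rps2, named after its values were seen, by -0.12 ± 0.04 (log2, SE; edgeR adjusted p = 0.000118, 0.00529, 0.0340 and 0.0407). None of these 4 overlapped between the groups. Among the 6 edgeR fits without 1 library, the call was lost in 4 for Rpl7a, 4 for Rps2 and 1 for Rps14. The highest adjusted p was 0.2005, 0.2065 and 0.0737 in that order. Rpl12 kept its call in all 6. Without replicate 2 of the 1 h group 1 was called lower, where 5.09% of all genes were. With the replicates numbered 3 of the 6 h and 24 h groups left out 9 (11.8%) were called (6 higher, 3 lower), where 17.8% of all genes were. With the even-count covariate 6 (7.89%) were called (2 higher, 4 lower), where 17.0% of all genes were.

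Between 6 h and 1 h no gene was called by edgeR or DESeq2, at a background of 0.0979% (0.0839% higher, 0.014% lower). At an unadjusted p under 0.05 stood 1 gene, Rps2, with 1520, 1464 and 1490 CPM after 6 h and 1641, 1679 and 1602 CPM after 1 h. The groups did not overlap, and the edgeR adjusted p was 0.521. The even-count covariate gave 0 calls here as well.

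Coding length ordered the genes by how much they varied. The SD of log2 CPM within groups had a median of 0.10 over the 76 genes, against 0.06 over 5311 other tested genes in the same range of mean level. Over the 76 genes, which share libraries and depth, Spearman's rho between this SD and coding length was -0.74. The most variable, named after their values were seen, were Rps29 (0.26), Rps21 (0.23), Rpl39 (0.23), Rpl38 (0.21) and Rps28 (0.20), and among the steadiest were Rpl4 (0.03), Rpl7a (0.05), Rps14 (0.05) and Rps2 (0.05).

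**Figure D5:**
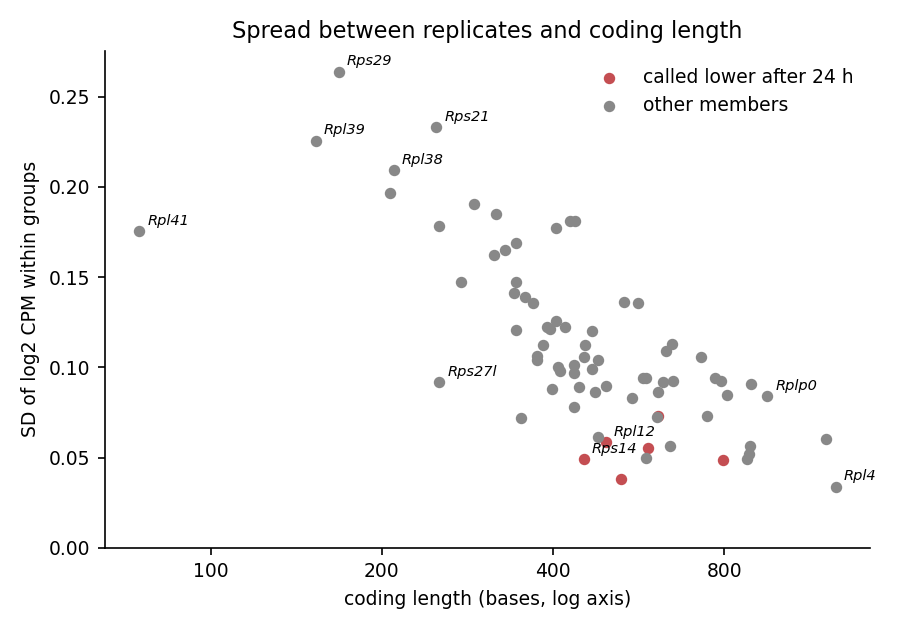
SD of log2 CPM within groups against coding length on a log axis, 1 point per gene, with the 6 genes called lower after 24 h in red. The SD is highest, 0.26, for Rps29 (168 coding bases) and lowest, 0.03, for Rpl4 (1257 coding bases), and the 6 red points lie among the low values.

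The difference between 24 h and unstimulated cells followed length as well, with rho = -0.61 over the 76 genes. The 26 genes with the shortest coding sequence (75 to 399 bases) had a median log2 fold change of 0.13 and the 25 with the longest (576 to 1257 bases) one of -0.03. The 25 genes between them (405 to 564 bases) had a median of 0.03. None of the 26 shortest was called, against 3 of the 25 between and 3 of the 25 longest. Of all genes tested, 18.7% were called and 8.35% were called lower. Replicate 3 of the 24 h group, where even low counts made up 73.7%, stood apart: the median of the 26 short genes, as deviation from their 12-library means, was 0.32 there, against 0.04 and 0.07 in replicates 1 and 2. Without that library the medians of the short and the long genes were 0.06 and -0.05 and rho was -0.55, and with the even-count covariate they were 0.04 and -0.06 and rho was -0.53. Without replicate 2 of the unstimulated group the medians were 0.08 and -0.07, and without its replicate 3 they were 0.21 and 0.000863. In the 1 h and 6 h groups against unstimulated cells rho was 0.125 and 0.04, but single libraries moved both. For 6 h it was 0.64 without replicate 3 of the 6 h group and -0.32 without its replicate 1 or its replicate 2. For 1 h it was 0.46 without replicate 1 and -0.25 without replicate 3 of the unstimulated group.

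Rps29 shows the pattern among short genes. It had 82.2, 81.7 and 123 CPM after 24 h, against 72.0, 63.0 and 83.1 CPM in unstimulated cells, and replicate 3 was the highest of its group in both. The log2 fold change of 0.40 ± 0.22 was the largest of the set and did not pass (edgeR adjusted p = 0.262). Rpl38 had 109, 118 and 151 CPM after 24 h, against 86.8, 103 and 110 CPM in unstimulated cells, and did not pass either (0.34 ± 0.17, adjusted p = 0.223).

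Other translation genes give the setting. Of all genes tested, edgeR called 18.7% after 24 h, 1.59% after 6 h and 0.42% after 1 h, each against unstimulated cells. Of 7 ribosomal protein genes outside the symbol rule (among them Rack1, Rps3a1, Fau, Rpl36al, Rpl22l1 and Rpl7l1), 0 were called in any of the 6 comparisons by edgeR or DESeq2, and 1 had an unadjusted edgeR p under 0.05 after 24 h and 1 after 6 h, each against unstimulated cells. Of 77 mitochondrial ribosomal protein genes tested, 3 were higher and 5 lower after 24 h than in unstimulated cells, and 0 were called after 6 h or 1 h by edgeR or DESeq2, with 12 and 4 at an unadjusted edgeR p under 0.05. Mrpl35 was the largest change, with 72.5 ± 1.62 CPM after 24 h and 45.7 ± 2.44 CPM in unstimulated cells (0.66 ± 0.05 log2, edgeR adjusted p = 1.24e-10), followed by Mrps9 (-0.24 ± 0.04) and Mrpl22 (0.23 ± 0.07). Of 6 elongation factor genes, Eef1d (-0.18 ± 0.04) and Eif5a (-0.17 ± 0.04) were lower after 24 h, and Eef1d was also lower after 6 h (-0.19 ± 0.04, adjusted p = 0.0162). Of 11 other genes with TOP messenger RNAs, Vim (0.48 ± 0.05) and Eif3e (0.15 ± 0.05) were higher after 24 h.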

How the data were processed

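The deposited data are 1 table of unnormalised counts, taken without change. The mm10 build and the tools featureCounts 1.4.3-p1, Picard and STAR 2.5.2a are named in the submitters' processing notes; no source used here gives the annotation release, strand setting or treatment of multiply matching reads. Libraries were stranded, made from 500 ng of total RNA with 10 PCR cycles and read as 125-base pairs, per the labels' protocols. Doubled separators in the header were resolved by matching the 12 names to the sample titles.

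Symbols were found for 99.8% of 53379 rows. Lengths, positions and overlaps came from GENCODE M21 (GRCm38). Genes were filtered with filterByExpr, scaled with TMM and fitted over 12 libraries with edgeR 4.0.16 (R 4.3.3; robust quasi-likelihood F test, 8 residual degrees of freedom, Benjamini-Hochberg over 14299 genes); the fitting was tested on simulated data. Levels are TMM-scaled CPM, and the SE is the log2 difference over the root of F. DESeq2 1.42.0 was an alternative. On halved counts, replicate pairs within groups gave chi-square values of 2.53 to 8.48 per degree of freedom, so none was treated as a repeat. Intervals from counting were not used.

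Genes named were fixed members with known other roles, the largest called changes, the extremes of level per exon kilobase and the rows nearest the CPM minimum. Some genes are counted but not reported here by name. The members and lists were chosen with earlier results of these data known.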

Additional observations from a re-analysis of the deposited data

Results flagged for a closer look

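For 6 genes the change against unstimulated cells differed between exposures by a test of the difference itself. Between 24 h and 6 h the differences on the log2 scale were 0.17 for Rps27l, -0.19 for Rpl12 and 0.20 for Rpl27. Between 24 h and 1 h they were -0.17 for Rps14, -0.25 for Rpl12, -0.12 for Rps2 and -0.13 for Rpl7a. Each passed an adjusted p of 0.05 in edgeR's test over all genes. These calls made up 3.95% of the 76 genes for 24 h against 6 h and 5.26% for 24 h against 1 h. Of all genes, 16.5% and 18.9% were called. In the fits without 1 library, every one of these calls except those of Rpl12 was lost at least once. Rpl12 is the one that passed in both pairs of exposures. With 3 samples a group, no single library was tested for lying far from the others.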

How the results depend on the processing

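Calls for Rpl12 in 3 comparisons and Rps14 after 24 h against unstimulated cells held under every alternative run. The number of genes called was 6 for 24 h against unstimulated cells, 3 for 24 h against 6 h and 4 for 24 h against 1 h. In that order it was 3, 1 and 2 at an adjusted p under 0.01. With no filter beyond 1 count it was 11, 13 and 9 (4, 12 and 5 of them higher), where 11.8%, 10.6% and 11.8% of all genes were called. The replicate block gave 11, 9 and 8 (5, 8 and 4 of them higher), where 19.2%, 17.3% and 19.5% of all genes were called. Over all genes, same-numbered samples had correlations of their deviations between -0.06 and 0.05. For the 76 genes, the highest shares were in replicate 3 of the 24 h, 6 h and unstimulated groups. Replicate 3 of the 1 h group went the other way, with the lowest share of its group (5.18%). Whether same-numbered samples were prepared together was not tested. For 24 h against 6 h, DESeq2 gave 6 (4 higher), where 17.9% of all genes were called. Removal of an exon length trend also gave 6 there (4 higher), where 17.6% of all genes were called. For 24 h against 1 h the 6 libraries alone gave 14 (10 higher), where 22.7% of all genes were called. Chosen after seeing the data, the even-count covariate gave 18 and 14 calls for the first 2 of these and a median of -0.0129 in place of 0.08 for 24 h against 1 h, and leaving out replicate 3 of the 6 h and 24 h groups gave 16 for 6 h against unstimulated cells, 28 for 24 h against 6 h and 9 for 24 h against 1 h. Without 1 library at a time, counts ran from 3 to 9 (24 h against unstimulated), 0 to 5 (6 h against unstimulated), 1 to 26 (24 h against 6 h) and 1 to 3 (24 h against 1 h), and stayed at 0 in the other 2 comparisons. The cause was not tested. Standard errors for 24 h against unstimulated cells reached 0.22 on the log2 scale, so small changes in the most variable genes were not detectable with 3 samples a group.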
